A study of Mus musculus with 43 samples.

Results

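The VEGF receptors and neuropilins are 5 genes, Flt1, Kdr, Flt4, Nrp1 and Nrp2, and their rows were taken by gene symbol from a count table of 57010 genes, in which all 5 were found. The table holds 43 bulk RNA-seq libraries of mouse whole heart, cardiac endothelial cells (EC) and cardiomyocytes (CM). The mice carried Q150X, a CRISPR/Cas9-edited stop-gained allele of Vegfa that models a human variant and that the library names abbreviate as HO, or were wild type (WT). Hearts were taken at homeostasis or 7 or 30 days after myocardial infarction (MI), and EC and CM at homeostasis or 3 days after MI. Hearts had 3 Q150X and 3 WT libraries at homeostasis, 4 and 4 at day 7, and 4 and 3 at day 30. EC had 3 Q150X and 3 WT libraries at homeostasis and 2 and 2 at day 3, and CM had 3 of each genotype at both times. No source used here gives age, strain, how the cells were isolated or where replicates came from. Replicates may therefore share an animal, and p-values measure the spread between these libraries, which may be technical.

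VEGF receptors are tyrosine kinases that endothelial cells carry on their surface. Kdr encodes VEGFR2, which carries most of the VEGFA signal for endothelial growth, migration and permeability. Flt1 encodes VEGFR1, which binds VEGFA tightly with little kinase output, also binds VEGFB and PlGF, and is made in a soluble form as well, so that a count per gene joins the membrane and soluble transcripts. Flt4 encodes VEGFR3, the receptor of VEGFC and VEGFD and a marker of lymphatic endothelium, also present on some blood vessels. Nrp1 and Nrp2 encode co-receptors without a kinase domain, which bind VEGFs beside the receptors and class 3 semaphorins together with plexins; Nrp2 is prominent on veins and lymphatics. In the adult heart the coronary endothelium is the main site of these receptors, and the neuropilins are also made by other cells of the tissue.

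Promoter windows of the members are shown because the members are compared with each other here, and known endothelial control of such promoters runs largely through ETS factors. All 5 members were matched by symbol to RefSeq promoters of build GRCm38.p6, and the 250 bases before the annotated start were read. Capitals mark the ETS core GGAAG or its reverse CTTCC, and, in Flt1, the cyclic AMP response element TGACGTCA. The windows lie at chr5:147726012-147726261 on the minus strand (Flt1), chr5:75978456-75978705 on the minus strand (Kdr), chr11:49609429-49609678 on the plus strand (Flt4) and chr8:128358823-128359072 on the plus strand (Nrp1), and each is printed 5′ to 3′.
Flt1: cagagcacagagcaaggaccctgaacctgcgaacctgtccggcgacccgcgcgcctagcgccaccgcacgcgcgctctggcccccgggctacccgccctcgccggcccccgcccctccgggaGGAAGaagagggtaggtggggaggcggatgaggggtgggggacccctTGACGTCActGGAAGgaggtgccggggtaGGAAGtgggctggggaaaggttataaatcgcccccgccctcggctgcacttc
Kdr: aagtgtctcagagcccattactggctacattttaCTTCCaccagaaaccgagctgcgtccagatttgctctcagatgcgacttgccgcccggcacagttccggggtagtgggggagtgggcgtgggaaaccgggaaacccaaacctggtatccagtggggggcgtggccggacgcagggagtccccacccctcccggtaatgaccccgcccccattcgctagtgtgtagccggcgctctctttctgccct
Flt4: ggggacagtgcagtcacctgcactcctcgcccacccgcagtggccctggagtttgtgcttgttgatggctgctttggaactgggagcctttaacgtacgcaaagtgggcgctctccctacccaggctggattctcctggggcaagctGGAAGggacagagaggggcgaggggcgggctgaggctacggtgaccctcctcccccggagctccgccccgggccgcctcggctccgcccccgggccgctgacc
Nrp1: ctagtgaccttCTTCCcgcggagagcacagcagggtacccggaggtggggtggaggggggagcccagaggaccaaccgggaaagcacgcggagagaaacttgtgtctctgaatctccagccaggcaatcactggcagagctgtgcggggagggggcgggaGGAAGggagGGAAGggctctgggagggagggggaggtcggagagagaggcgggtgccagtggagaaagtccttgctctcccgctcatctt
Flt1 held 3 ETS cores, whose first bases lie 128, 71 and 52 bases before the start, TGACGTCA at 81 bases and TATAAA at 31 bases. Nrp1 held 3 cores as well, at 239, 90 and 81 bases, whereas Kdr held 1 at 216 bases and Flt4 held 1 at 103 bases. The Nrp2 window (chr1:62703067-62703316, plus strand) held none. Searched on both strands, an ETS core was in 64.1% of 32841 promoter windows of this length and 3 or more cores in 10.7%, TGACGTCA in 1.55%, TATAAA in 12.4% and the GC box GGGCGG, which all 5 members held, in 32.7%. The core ACGTG of hypoxia-response elements was in 16.6% of windows and in 0 of the 5. Member windows were 61.6% to 72.4% G and C, against a median of 52.4% over all windows. These matches describe letters in short windows, not bound sites.

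Libraries held 25948706 to 37356177 counts in hearts, 32008175 to 45243608 in EC and 25035490 to 42246348 in CM, and the members had 43 to 101676 counts per library. Levels are given as CPM (counts scaled by each library's size), with TMM factors over all 43 libraries. The cardiomyocyte and endothelial marker lists matched the labelled cell types: 12 cardiomyocyte genes summed to 770.0 to 1122 CPM in EC and 116176 to 136901 CPM in CM at homeostasis, and 22 endothelial genes that include no member summed to 11021 to 12634 CPM in EC and 257 to 925 CPM in CM. Pericyte and smooth muscle genes were also high in EC at homeostasis, at 2946 to 4311 CPM against 1252 to 1494 CPM in homeostasis hearts. Their part in the EC levels of the members was not tested. Number 2 of the Q150X EC at day 3 held thymus RNA, with Rag1 at 998 CPM against at most 1.11 CPM in any other library, and the vascular marker Pecam1 at 256 CPM against 681 to 1052 CPM in the other EC of that day. Number 1 of both genotypes in homeostasis hearts carried atrial RNA (Myl7 446 CPM in Q150X and 509 CPM in WT, at most 0.03 CPM in the rest of these hearts), and number 4 of the WT hearts at day 7 carried placental RNA (Tpbpa 453 CPM, at most 0.12 CPM in the other hearts). All day 3 EC libraries had female expression (Xist 321 to 842 CPM), and all other libraries male expression (Xist at most 4.03 CPM), so sex and time after MI cannot be told apart in EC. Values without these libraries are given beside the heart and EC values whose call, sign or size they move most.

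All 5 genes were higher in EC than in whole heart and lower in CM than in whole heart at homeostasis. Kdr, the main signalling receptor, stood at 1449 ± 38.4 CPM in Q150X EC and 1733 ± 239 CPM in WT EC, against 239 ± 123 CPM in Q150X hearts and 288 ± 51.4 CPM in WT hearts (SD, n = 3 each). Every EC library lay above every heart library. The difference between EC and heart on the log2 scale was 2.53 ± 0.39 in Q150X and 2.52 ± 0.39 in WT (± SE) for Kdr, and 2.90 ± 0.37 in Q150X and 2.61 ± 0.37 in WT for Flt1. Between EC and heart, all 5 members were called higher in each genotype, at an adjusted p under 0.05 of edgeR's quasi-likelihood test over all genes, where 30.8% of genes were called higher in Q150X (63.2% in either direction) and 29.7% in WT (61.1%). Between CM and heart all 5 were called lower in each genotype, where 20.4% of genes were called lower in Q150X (31.6% in either direction) and 19.3% in WT (33.3%). Every one of these calls held without the atrial libraries. In WT, the CM values were -0.81 ± 0.21 for Nrp1 and -1.40 to -1.96 for the other members.

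The size of the difference between EC and CM was lowest for Nrp1 and next lowest for Nrp2, with members not tested against each other. In WT it was 4.23 ± 0.42 for Kdr, 4.04 ± 0.34 for Flt4, 4.01 ± 0.39 for Flt1, 3.39 ± 0.44 for Nrp2 and 2.77 ± 0.22 for Nrp1. In Q150X the corresponding values were 4.79, 4.56, 4.85, 4.17 and 3.18, so that Nrp1 had the lowest value of the 5 in both genotypes. All 5 were called higher in EC in both genotypes, where 39.3% of genes were called higher in Q150X (72.1% in either direction) and 37.8% in WT (70.4%). In WT the 22 endothelial genes had differences of 2.96 to 5.49 with a median of 4.52, the 10 pericyte and smooth muscle genes a median of 2.81 and the 5 plexins a median of 0.95, against 0.20 over all genes. Nrp1 alone of the members thus lay below the range of the endothelial genes, as a description of these values.

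Per kilobase of exon, the only scale on which levels of different genes are set side by side here, the order in WT EC at homeostasis was Kdr (192 CPM per kb), Flt1 (101), Nrp1 (57.7), Nrp2 (24.7) and Flt4 (15.04). Flt1, Nrp1, Nrp2 and Flt4 followed each other in that order in all 10 EC libraries, and Kdr exceeded Flt1 in 8 of them. In CM the order was different, and Nrp1 lay above Kdr in 8 of 12 libraries. Mean Nrp1 was 8.35 CPM per kb against 6.25 for Kdr in WT CM at day 3, and 7.87 against 9.49 in WT CM at homeostasis. Kdr exceeded Flt1, Flt1 exceeded Nrp2 and Nrp2 exceeded Flt4 in all 12 CM libraries. In hearts Kdr exceeded Nrp1 in all 21 libraries and Flt1 in 18, while Nrp2 and Flt4 had no steady order, with Nrp2 above in 11 of 21.

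**Figure D1:**
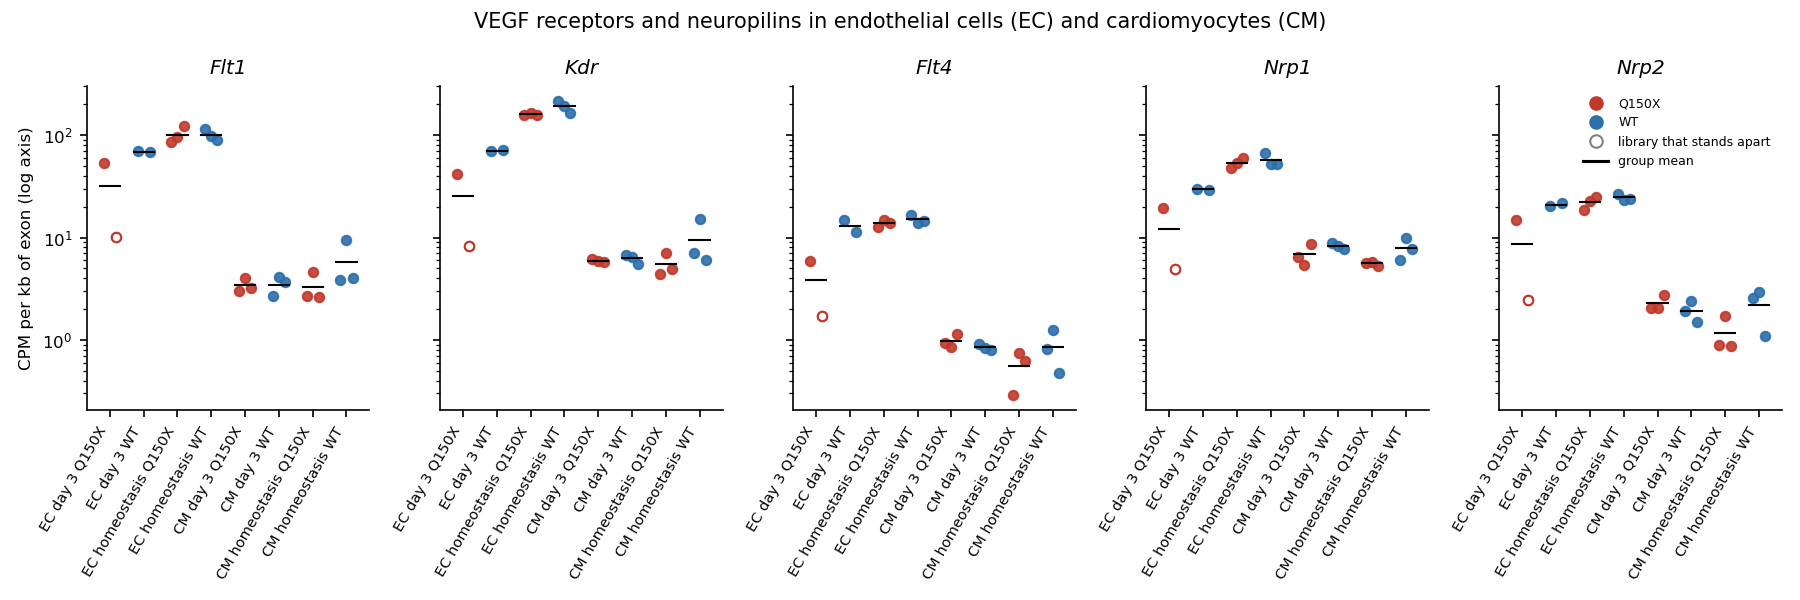
CPM per kb of exon on a log axis in EC and CM, day 3 left of homeostasis and Q150X left of WT, with a point per library, a bar at the group mean and an open point for the thymus RNA library. Every member is higher in the EC libraries at homeostasis than in any CM library, and in EC the day 3 points of Kdr lie below its homeostasis points.

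Over the 14 groups, the order by mean CPM opened with WT and Q150X EC at homeostasis and WT EC at day 3 for every member, save that Q150X EC at homeostasis led for Flt1. At the low end were the CM groups for Flt1, Kdr, Flt4 and Nrp2. For Nrp1 the low end was the day 7 hearts, with 44.1 ± 8.21 CPM in Q150X and 48.7 ± 8.40 CPM in WT (SD, n = 4 each), below CM, where the 4 group means were 54.9 to 81.7 CPM. Of the 13 neighbouring pairs in each order, the libraries overlapped in 11 for Flt1, 10 for Kdr, 11 for Flt4, 11 for Nrp1 and 12 for Nrp2, so neighbours mostly did not differ beyond their spread. In every member WT EC at day 3 lay above the next group without overlap.

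Nrp1 fell in hearts at both times after MI in both genotypes, with its larger values at day 7. Nrp1 in Q150X hearts was 77.9, 143 and 126 CPM at homeostasis, 55.6, 44.4, 39.3 and 37.3 CPM at day 7, and 54.5, 61.4, 71.0 and 80.3 CPM at day 30. In WT hearts it was 126, 138 and 149.6 CPM at homeostasis, 52.8, 58.4, 42.8 and 40.6 CPM at day 7, and 78.9, 77.9 and 69.9 CPM at day 30. All day 7 libraries lay below all homeostasis libraries in both genotypes, and in WT the day 30 libraries lay between the others without overlap. At day 7 Nrp1 fell by 1.37 ± 0.19 in Q150X (log2, adjusted p = 4.65e-05) and by 1.49 ± 0.19 in WT (adjusted p = 4.91e-05), and at day 30 by 0.79 ± 0.19 in Q150X (adjusted p = 0.00369) and by 0.88 ± 0.20 in WT (adjusted p = 0.0121). From day 7 to day 30 it rose by 0.57 ± 0.17 in Q150X (adjusted p = 0.0178, called in 12 of 15 alternatives) and 0.62 ± 0.19 in WT (adjusted p = 0.0184, called in 10 of 15). The day 7 calls held under all 16 alternatives in Q150X and all 15 in WT. In these bulk libraries fewer cells of a type and less RNA per cell cannot be told apart.

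All 4 Nrp2 values after MI were below 0, and the test called 1 of them, in Q150X hearts at day 7, a call that depends on the fit. It was 24.2, 99.8 and 84.4 CPM in Q150X hearts at homeostasis, 41.1, 32.1, 32.3 and 25.8 CPM at day 7 and 30.1, 40.4, 44.8 and 47.3 CPM at day 30. In WT hearts it was 64.4, 65.9 and 79.5 CPM at homeostasis, 34.7, 54.1, 30.7 and 26.6 CPM at day 7, and 44.9, 45.4 and 55.7 CPM at day 30. WT groups after MI did not overlap homeostasis, whereas in Q150X the atrial library at 24.2 CPM overlapped them. The day 7 values were -1.06 ± 0.32 in Q150X (adjusted p = 0.0206) and -0.93 ± 0.32 in WT (adjusted p = 0.0607). With replicate number as a block, the Q150X value was -0.91 (adjusted p = 0.0506), or -0.83 (adjusted p = 0.327) in the compared groups alone. Without the libraries that stand apart the value was -1.46 in Q150X and -0.85 in WT, and both were called. At day 30 Nrp2 stood at -0.77 ± 0.32 in Q150X (adjusted p = 0.0758) and -0.53 ± 0.35 in WT, neither called; without those libraries the Q150X value was -1.18 (adjusted p = 0.000508).

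Plexins, the signal-carrying partners of neuropilins for semaphorins, had some members with the same direction at day 7. Of 5 plexins, 3 fell and 0 rose in Q150X hearts (median -0.85), and 2 fell and 0 rose in WT hearts (median -0.47), against medians of 0.06 and 0.05 over all genes, of which 26.0% were called in either direction in Q150X and 13.7% in WT. Plxna1 fell by 1.17 ± 0.18 in Q150X (adjusted p = 0.00012) and by 1.15 ± 0.18 in WT (adjusted p = 0.00026). Plxnd1, the endothelial plexin, fell by 1.24 ± 0.21 in Q150X (adjusted p = 0.00035) and by 1.20 ± 0.21 in WT (adjusted p = 0.00096). At day 30 against day 7 Plxna1 rose in both genotypes, by 0.90 in Q150X and 0.97 in WT. Among 7 class 3 semaphorins, the secreted ligands of neuropilins and plexins, 3 rose and 0 fell in Q150X at day 7, with Sema3a at 1.21 ± 0.34 and Sema3d at 1.30 ± 0.41, and 0 rose and 1 fell in WT, Sema3c at -0.83 ± 0.25. At day 30 Sema3d rose by 2.70 ± 0.42 in Q150X (adjusted p = 0.00023) and by 1.67 ± 0.42 in WT (adjusted p = 0.021).

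Kdr fell at day 30 in both genotypes and at day 7 in WT, while Flt1 fell at day 30 in Q150X. Kdr in Q150X hearts was 97.9, 323 and 297 CPM at homeostasis, 149, 152, 116 and 152 CPM at day 7, and 77.5, 86.5, 79.0 and 147 CPM at day 30. In WT hearts it was 229, 323 and 311 CPM at homeostasis, 153, 196, 131 and 141 CPM at day 7, and 106, 114 and 94.8 CPM at day 30. The WT groups at the 3 times did not overlap each other; in Q150X the atrial library at 97.9 CPM lay among the day 30 values. At day 7 the values were -0.73 ± 0.29 in Q150X (adjusted p = 0.0698) and -0.88 ± 0.29 in WT (adjusted p = 0.0498, called in 8 of 15 alternatives). At day 30 Kdr fell by 1.30 ± 0.29 in Q150X (adjusted p = 0.00286) and by 1.46 ± 0.32 in WT (adjusted p = 0.00864). Without the libraries that stand apart Kdr at day 7 was called in both genotypes, at -1.10 in Q150X (adjusted p = 0.00124) and -0.97 in WT (adjusted p = 0.00793).

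Flt1 in Q150X hearts was 89.8, 219 and 215 CPM at homeostasis, 132, 214, 171 and 200.2 CPM at day 7, and 70.1, 96.2, 79.7 and 144 CPM at day 30. In WT hearts it was 223, 216 and 199.8 CPM at homeostasis, 208, 158, 241 and 296 CPM at day 7, and 133, 127 and 149 CPM at day 30. The highest day 7 value belongs to the library with placental RNA, a tissue that makes much Flt1; its part in that value was not tested. All WT day 30 libraries lay below all earlier WT libraries. The day 7 values were 0.06 ± 0.27 in Q150X and 0.09 ± 0.27 in WT, or -0.25 ± 0.24 in Q150X and -0.03 ± 0.25 in WT without the libraries that stand apart. At day 30 Flt1 fell by 0.85 ± 0.27 in Q150X (adjusted p = 0.0248, called in 9 of 15 alternatives; -1.15 without the libraries that stand apart, adjusted p = 0.000982) and stood at -0.65 ± 0.29 in WT (adjusted p = 0.157). Against day 7, the day 30 level fell by 0.90 ± 0.26 in Q150X (adjusted p = 0.0119, in all 15 alternatives) and stood at -0.74 ± 0.28 in WT (adjusted p = 0.0504).

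**Figure D2:**
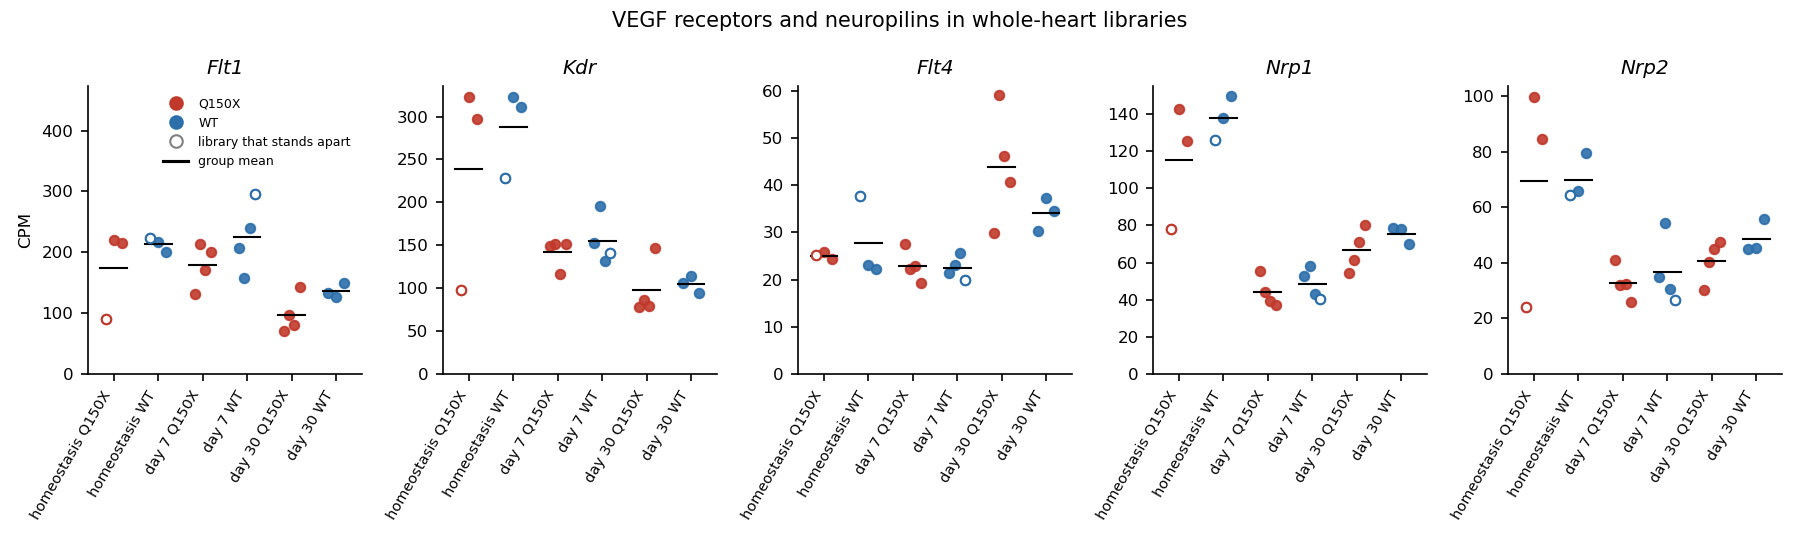
CPM of the 5 genes in each whole-heart library, Q150X left of WT at homeostasis, day 7 and day 30, with bars at group means and open points for libraries that stand apart. Nrp1 is low in all 8 day 7 libraries, and by group mean Kdr is lowest at day 30, Flt1 is lower at day 30 than at day 7, and Flt4 is highest at day 30.

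Counted over the family, 2 of 5 members were called at day 7 in each genotype, Nrp1 and Nrp2 in Q150X and Nrp1 and Kdr in WT, all lower. There 12.3% of genes were called lower in Q150X (26.0% in either direction) and 6.07% in WT (13.7%). At day 30, 4 of 5 were called in Q150X, Flt1, Kdr and Nrp1 lower and Flt4 higher, and 2 of 5 in WT, Kdr and Nrp1, both lower. There 14.2% of genes were called lower in Q150X (29.7% in either direction) and 3.49% in WT (8.93%). With voom and library weights all 5 were called at day 30 in both genotypes, and DESeq2 called 5 in Q150X and 2 in WT. Of 17845 genes, voom called 8989 in Q150X and 7185 in WT there, and DESeq2 called 6010 in Q150X and 2769 in WT. Without the libraries that stand apart, edgeR called Kdr, Nrp1 and Nrp2 at day 7 in both genotypes. At day 30 it then called all 5 members in Q150X, and Kdr, Flt4 and Nrp1 in WT. That fit called 5261 genes in Q150X and 3263 in WT at day 7, and 8091 in Q150X and 6221 in WT at day 30. The comparisons of days 7 and 30 share the homeostasis libraries. Between day 30 and day 7, Flt4 and Nrp1 were called higher in both genotypes and Flt1 lower in Q150X, where 31.4% of genes were called in Q150X and 30.0% in WT. Kdr in WT stood at -0.58 ± 0.30 (adjusted p = 0.141) between these days, or at -0.63 ± 0.21 without the libraries that stand apart (adjusted p = 0.0246).

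The ratio of Flt1 to Kdr counts, a value within a library that needs no scaling, had higher group means in hearts and EC after MI than at homeostasis. None of these comparisons could have passed the test with so few libraries. In EC it was 1.84 and 1.91 in Q150X at day 3 against 0.812 to 1.16 in Q150X at homeostasis, and 1.45 and 1.48 in WT at day 3 against 0.766 to 0.817 in WT at homeostasis. Neither pair of groups overlapped, and the high Q150X values include the thymus RNA library. The log2 differences were 1.0 in Q150X and 0.88 in WT, each with an exact permutation p of 0.2, the smallest that 2 against 3 libraries can give. In hearts the ratio was 0.680 to 0.917 in Q150X at homeostasis, 0.883 to 1.48 at day 7 and 0.904 to 1.11 at day 30. In WT hearts it was 0.643 to 0.976 at homeostasis, 0.805 to 2.10 at day 7 and 1.11 to 1.57 at day 30, the last without overlap with homeostasis. The log2 difference from homeostasis was 0.70 in Q150X and 0.94 in WT at day 7 (exact two-sided p = 0.114 each), and 0.38 in Q150X (exact p = 0.114) and 0.80 in WT (exact p = 0.1, the smallest possible) at day 30. CM gave -0.06 in Q150X and -0.15 in WT (exact p = 0.8 each). The 17 ratio comparisons gave adjusted p of at least 0.378. The smallest p that the group sizes allow ran from 0.0286 to 0.333, so none could have passed after adjustment over all 17. No conclusion is drawn from the lack of calls.

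**Figure D3:**
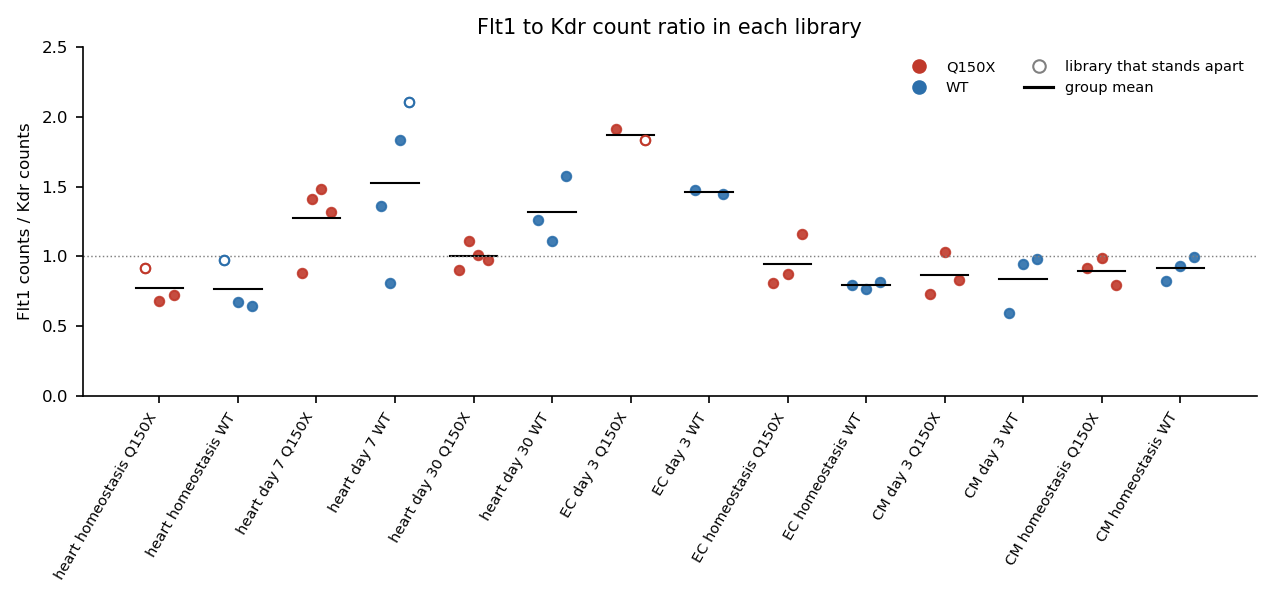
Flt1 counts over Kdr counts in each library, by compartment, time and genotype, with bars at group means, open points for libraries that stand apart and a dotted line at 1. The 4 EC libraries at day 3 lie at 1.45 to 1.91, above all EC libraries at homeostasis (0.766 to 1.16), while CM libraries stay between 0.591 and 1.03.

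Flt4 went the other way from Kdr in hearts, with its highest levels at day 30. In Q150X hearts it was 25.2, 25.8 and 24.3 CPM at homeostasis, 27.6, 22.2, 22.8 and 19.2 CPM at day 7, and 30.0, 59.1, 46.2 and 40.7 CPM at day 30. In WT hearts it was 37.7, 23.2 and 22.2 CPM at homeostasis, 21.5, 23.1, 25.7 and 19.9 CPM at day 7, and 30.4, 37.3 and 34.5 CPM at day 30. All Q150X day 30 libraries lay above all earlier Q150X libraries; in WT they lay above day 7 but overlapped homeostasis through its atrial library. Flt4 rose by 0.80 ± 0.20 in Q150X at day 30 (adjusted p = 0.00622, in all 15 alternatives) and stood at 0.29 ± 0.21 in WT (adjusted p = 0.385), or at 0.58 in WT without the libraries that stand apart (adjusted p = 0.0354). Against day 7, it rose by 0.91 ± 0.19 in Q150X (adjusted p = 0.00124) and by 0.58 ± 0.20 in WT (adjusted p = 0.0339, called in 8 of 15 alternatives). The difference between the genotypes in the change from homeostasis to day 30 was 0.51 ± 0.29 (adjusted p = 0.574), or 0.23 ± 0.28 without the libraries that stand apart (adjusted p = 0.827).

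Lymphatic genes moved in the same hearts. Of 7 lymphatic endothelial genes, 6 rose and 1 fell in Q150X at day 30 (median 1.86), and 3 rose and 1 fell in WT (median 0.84), against -0.03 and -0.02 over all genes, of which 29.7% were called in either direction in Q150X and 8.93% in WT. Lyve1, a hyaluronan receptor of lymphatic vessels and some macrophages, rose by 1.48 ± 0.19 in Q150X, and the lymphatic chemokine gene Ccl21a by 3.50 ± 0.33 in Q150X and 2.10 ± 0.32 in WT. Prox1, the lymphatic master regulator that cardiomyocytes also make, fell by 0.94 ± 0.16 in Q150X and by 0.65 ± 0.17 in WT. Vegfd, which encodes a ligand of VEGFR3, rose by 2.82 ± 0.50 in Q150X (adjusted p = 0.00061) and by 1.64 ± 0.50 in WT (adjusted p = 0.048). The summed level of the 7 lymphatic genes was 222 to 389 CPM in Q150X and 205 to 212 CPM in WT at day 30, and 120 to 146 CPM in Q150X and 109 to 150 CPM in WT at homeostasis, with none at 0 in any heart library; its part in the Flt4 result was not tested.

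**Figure D4:**
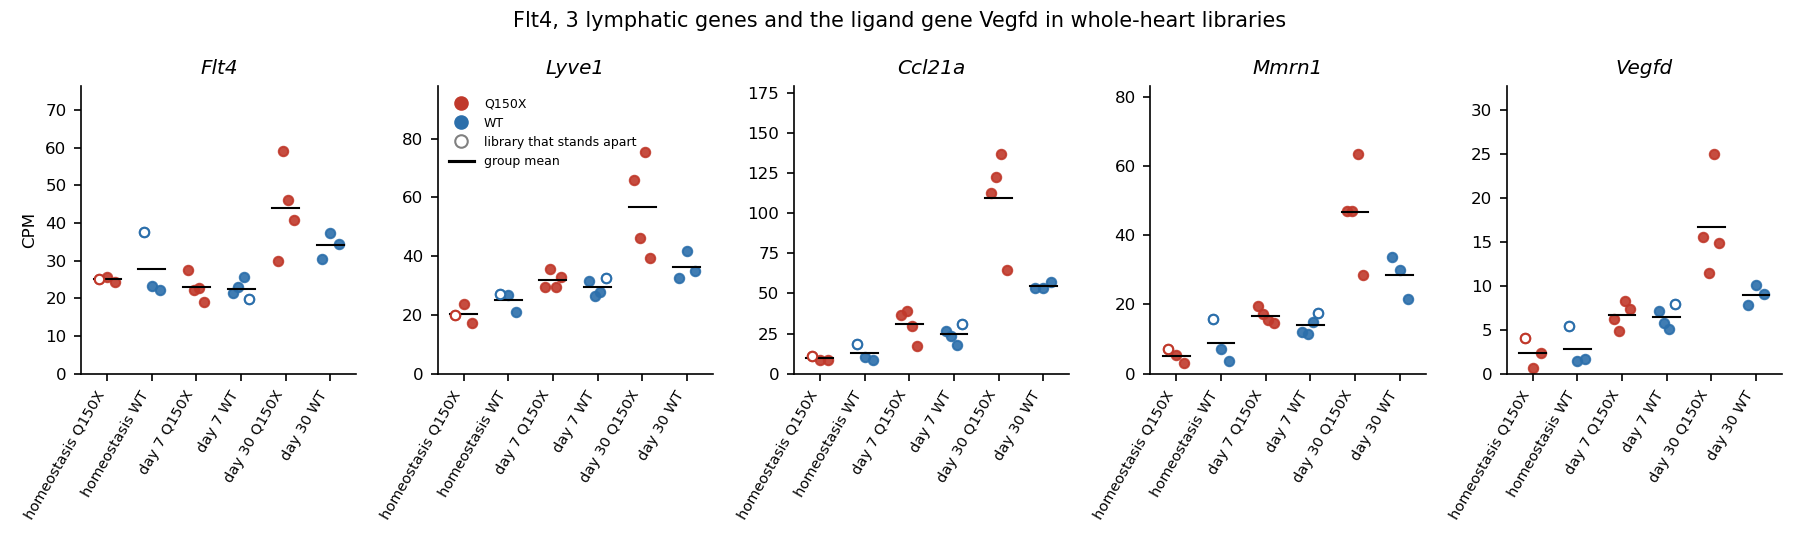
CPM of Flt4, the lymphatic genes Lyve1, Ccl21a and Mmrn1 and the ligand gene Vegfd in each heart library, Q150X left of WT at each time, with bars at group means and open points for libraries that stand apart. All 5 genes have their highest group mean in Q150X hearts at day 30.

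Several marker sums of hearts after MI lay outside the range of the homeostasis hearts without atrial RNA, while the endothelial sum at day 7 overlapped it. The 22 endothelial genes summed to 1533 to 1843 CPM at day 7 and 1030 to 1651 CPM at day 30, against 1739 to 1873 CPM in the homeostasis hearts without atrial RNA and 1107 CPM in Q150X and 2224 CPM in WT in those with it. The cardiomyocyte genes summed to 39790 to 72908 CPM after MI against 81368 to 87893 CPM in the homeostasis hearts without atrial RNA, and the pericyte and smooth muscle genes to 772 to 1308 CPM against 1396 to 1494 CPM. Higher after MI were the fibroblast genes (1963 to 7572 CPM against 868 to 1042 CPM) and the macrophage genes (373 to 2038 CPM against 237 to 355 CPM). The adipocyte genes summed to 1034 to 1496 CPM at day 7 and 349 to 458 CPM at day 30, against 509 to 586 CPM. In the homeostasis hearts with atrial RNA the cardiomyocyte sums were 65381 and 103357 CPM, the fibroblast sums 1720 and 2067 CPM and the macrophage sums 419 and 451 CPM, so that with these hearts the groups overlapped. The part of these cell types in the member values was not tested, beyond a scaling to endothelial genes. The heart fit was repeated with the summed counts of the 22 endothelial genes as library size, which gives each member per endothelial transcript. On this scale Nrp1 at day 7 fell by 1.41 ± 0.19 in Q150X (adjusted p = 5.45e-05) and by 1.32 ± 0.19 in WT (adjusted p = 0.000198), where the median of all genes was -0.06 in Q150X and 0.25 in WT. Kdr at day 30 fell by 0.91 ± 0.24 in Q150X (adjusted p = 0.0103) and by 1.13 ± 0.27 in WT (adjusted p = 0.00932), against medians of 0.27 and 0.33 over all genes. Flt4 at day 30 rose by 1.08 ± 0.24 in Q150X (adjusted p = 0.00252) and stood at 0.68 ± 0.25 in WT (adjusted p = 0.0844), or at 0.82 in WT without the libraries that stand apart (adjusted p = 0.00923).

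Per endothelial transcript the day 30 values of Nrp1 and Flt1 lost their calls, with Nrp1 at -0.45 ± 0.19 in Q150X (adjusted p = 0.103) and -0.54 ± 0.21 in WT (adjusted p = 0.095), and Flt1 at -0.49 ± 0.24 in Q150X (adjusted p = 0.163). Without the libraries that stand apart all 3 were called, with Nrp1 at -0.48 in Q150X (adjusted p = 0.0285) and -0.69 in WT (adjusted p = 0.00693) and Flt1 at -0.65 in Q150X (adjusted p = 0.0102). With all libraries, at day 7, 3 of 5 members were called in Q150X (Kdr, Nrp1 and Nrp2), where 16.4% of all genes were, and 1 of 5 in WT (Nrp1), where 8.42% were. At day 30, 2 of 5 were called in Q150X (Kdr and Flt4), where 19.2% of genes were, and 1 of 5 in WT (Kdr), where 9.99% were. Between day 30 and day 7, Flt4 and Nrp1 were called higher in both genotypes and Nrp2 in Q150X, where 32.4% of genes were called in Q150X and 17.6% in WT. Of these, Flt4 in WT was called in 4 of 12 alternatives and Nrp2 in Q150X in 6 of 12. Without the libraries that stand apart, the calls on this scale also took in Kdr (-0.94, adjusted p = 0.00278) and Nrp2 (-0.83, adjusted p = 0.00687) in WT at day 7 and Nrp2 in Q150X at day 30 (-0.65, adjusted p = 0.00553). Kdr in Q150X at day 7 stood at -0.71 ± 0.24 (adjusted p = 0.0483) and was called in 3 of 12 alternatives. Replicate number as a block was among those in which it lost its call.

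**Figure D5:**
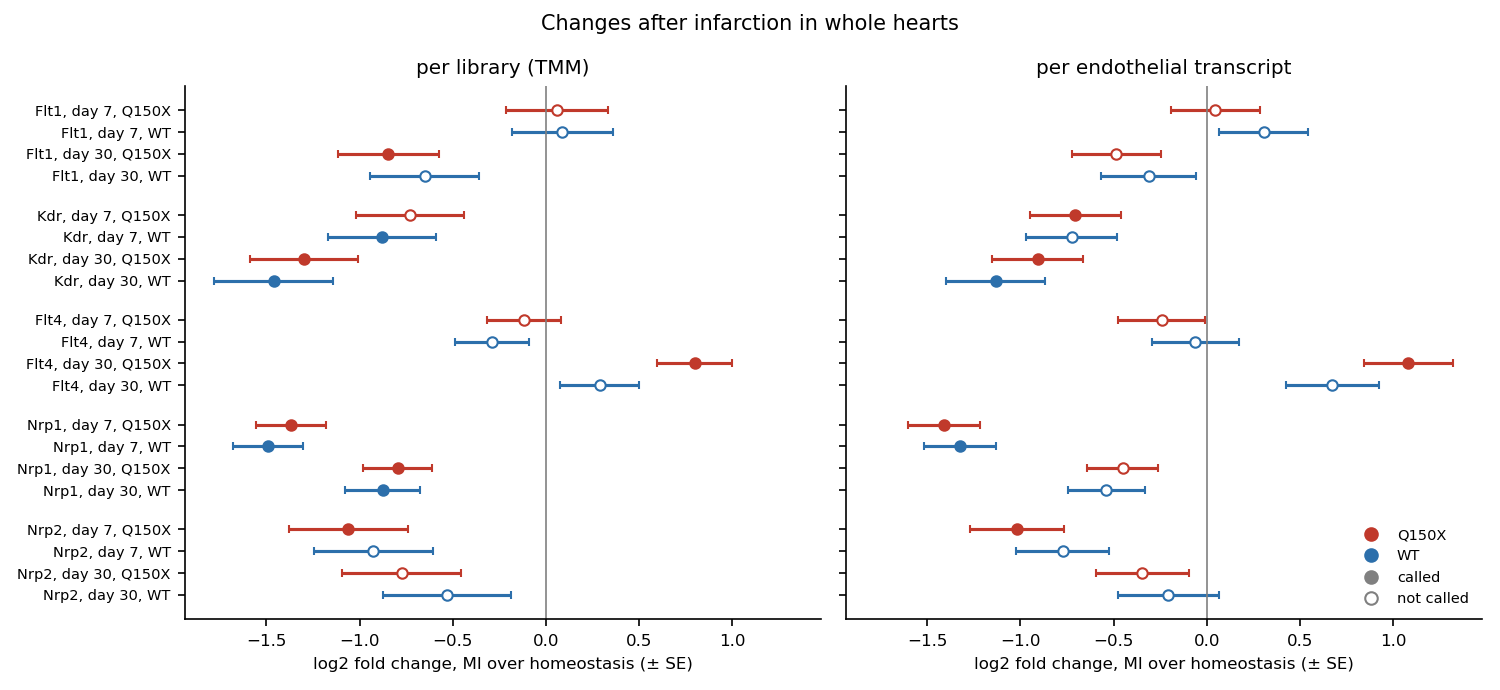
Log2 fold changes of MI over homeostasis in whole hearts (± SE), per library on the left and per endothelial transcript on the right, with filled points for called values, Q150X in red and WT in blue. Nrp1 at day 7 and Kdr at day 30 are filled in both genotypes on both scales, Flt4 at day 30 in Q150X on both, and Flt1 at day 7 lies within 1 SE of 0 per library.

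In EC 3 days after MI all 5 values were below 0 in both genotypes, with calls in Q150X. Kdr was 382 and 74.3 CPM in Q150X EC at day 3, against 1424, 1493 and 1430.0 CPM in Q150X EC at homeostasis, and 637 and 641 CPM in WT EC at day 3, against 1963, 1749 and 1486 CPM in WT EC at homeostasis. Neither pair of groups overlapped. The differences were -2.55 ± 0.66 in Q150X (adjusted p = 0.0207) and -1.31 ± 0.62 in WT (adjusted p = 0.234). In Q150X, Flt4 fell by 1.76 ± 0.50 (adjusted p = 0.0280) and Nrp1 by 2.04 ± 0.56 (adjusted p = 0.0258), so 3 of 5 members were called, all lower, where 15.1% of genes were called lower (33.8% in either direction). In WT edgeR called 0 of 5, where it called 9.52% of genes, and 0 of 5 had an unadjusted p under 0.05, as had 25.1% of all genes. The spread in this fit was estimated with the thymus RNA library included. The lack of WT calls therefore does not show that WT was unchanged. DESeq2 called 0 of 5, and voom with library weights called 2 of 5. Of 18223 genes, DESeq2 called 3464 there and voom 7652.

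The thymus RNA library weighs on these values, and the WT values share their estimate of the spread with it. No WT value was taken from the fit without that library. Flt4 was 48.6 CPM in the other Q150X library at day 3 and 14.3 CPM in the thymus RNA library, against 104, 123 and 115 CPM in Q150X EC at homeostasis. Nrp1 was 190.5 and 48.0 CPM in the same libraries, against 469, 524 and 591 CPM. Without the thymus RNA library a lone Q150X library is left at day 3, assumed to vary like the other groups. The fall was then 1.80 ± 0.20 for Kdr (adjusted p = 1.4e-05), 1.34 ± 0.20 for Nrp1 (adjusted p = 0.000147), 1.10 ± 0.18 for Flt4 (adjusted p = 0.000402) and 0.78 ± 0.21 for Flt1 (adjusted p = 0.0111), with Nrp2 at -0.45 ± 0.17 (adjusted p = 0.0609). In the same libraries the macrophage genes summed to 2112 to 4448 CPM at day 3 against 69.5 to 136 CPM at homeostasis, the endothelial genes to 4702 to 7194 CPM against 11021 to 12634 CPM, and the pericyte genes to 697 to 1576 CPM against 2946 to 4311 CPM. Of the 22 endothelial genes, 13 fell and 0 rose in Q150X with all libraries (median -2.01), and 0 of 22 were called in WT by edgeR, with 0 at an unadjusted p under 0.05 (median -0.69; no other tool was run on lists). Their part in the member values was not tested.

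In CM 3 days after MI no member was called. In Q150X edgeR called 0 of 5, where 27.0% of genes were called, with 2 at an unadjusted p under 0.05, as were 38.5% of all genes, and 0 by DESeq2 or voom. These were Nrp2, at 24.2, 24.4 and 32.6 CPM at day 3 against 10.7, 20.3 and 10.3 CPM at homeostasis, and Flt4, at 7.74, 6.98 and 9.36 CPM against 2.37, 6.18 and 5.07 CPM. Neither overlapped, and the differences were 0.89 ± 0.37 and 0.74 ± 0.33. In WT edgeR called 0 of 5, where 17.4% of genes were called, with 2 at an unadjusted p under 0.05, as were 31.3% of all genes, and 0 by DESeq2 or voom. These were Flt1 at -0.82 ± 0.36 and Kdr at -0.68 ± 0.30. Number 2 of WT CM at homeostasis was high in Flt1 (129 CPM), Kdr (138 CPM) and in the summed endothelial genes (925 CPM, against 257 to 468 CPM in the other CM at homeostasis). Vegfa, which CM make, fell by 0.85 ± 0.16 in Q150X (adjusted p = 0.0012) and by 0.75 ± 0.16 in WT (adjusted p = 0.0051).

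Between Q150X and WT no member passed the test in any of the 7 comparisons. Flt1 and Kdr in hearts differed by -0.29 ± 0.29 and -0.27 ± 0.31 at homeostasis, by -0.32 ± 0.25 and -0.12 ± 0.27 at day 7, and by -0.48 ± 0.27 and -0.10 ± 0.29 at day 30. Flt4, Nrp1 and Nrp2 differed by -0.14 ± 0.21, -0.25 ± 0.20 and -0.01 ± 0.34 at homeostasis, by 0.04 ± 0.18, -0.13 ± 0.17 and -0.14 ± 0.30 at day 7, and by 0.37 ± 0.20, -0.17 ± 0.19 and -0.25 ± 0.32 at day 30. Without the atrial libraries the homeostasis values were 0.06 for Flt1, -0.04 for Kdr, 0.14 for Flt4, -0.10 for Nrp1 and 0.34 for Nrp2, so that 3 of them turned above 0. In the same fit, which also lacks the placental library, the day 7 values were -0.16, -0.16, -0.02, -0.21 and -0.27 in that order. The 95% intervals of Nrp1 ran from -0.64 to 0.14, from -0.47 to 0.21 and from -0.54 to 0.19, so differences within them cannot be told from 0 here. Of the 35 member values edgeR called 0, with 4 at an unadjusted p under 0.05, 1 called by DESeq2 (Flt4 in EC at day 3) and 1 by voom (Flt1 in hearts at day 30, at -0.62 with adjusted p = 0.0458). In these comparisons edgeR called 0% of all genes, except 0.443% in hearts at day 30. DESeq2 called 2348 of 18223 genes in EC at day 3, and voom called 1751 of 17845 genes in hearts at day 30.

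The 4 genotype values at an unadjusted p under 0.05 were Flt4 in EC at day 3 and Kdr, Nrp1 and Nrp2 in CM at homeostasis, where 23.2% of all genes in EC and 13.2% in CM were below that p. Flt4 was 48.6 and 14.3 CPM in Q150X EC at day 3, against 121 and 94.3 CPM in WT EC, without overlap, a difference of -1.81 ± 0.53 (adjusted p = 0.143). Without the thymus RNA library, which leaves a lone Q150X library, it was -1.15 ± 0.19, and Kdr was then at -0.74 ± 0.19. With all libraries, 7 of 22 endothelial, 5 of 7 lymphatic and 9 of 10 pericyte and smooth muscle genes had an unadjusted p under 0.05 there. Of 10 macrophage genes 0 did. EdgeR called 0 of these list genes, and their part in the Flt4 and Kdr values was not tested. Nrp1 in CM at homeostasis was 55.8, 56.8 and 52.0 CPM in Q150X, against 58.7, 97.6 and 74.8 CPM in WT, without overlap, at -0.47 ± 0.17 (adjusted p = 0.268). Kdr and Nrp2 there were at -0.78 ± 0.31 and -0.89 ± 0.37, and number 2 of the WT libraries, with its high endothelial sum, was the highest in both. Of the 22 endothelial genes, 16 had an unadjusted p under 0.05 in that comparison and 0 were called by edgeR (median -0.93), with summed levels of 288, 431 and 257 CPM in Q150X CM and 468, 925 and 428 CPM in WT CM; their part in the member values was not tested.

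No difference between genotypes in the change after MI was called. Of 20 interaction values edgeR called 0, and it called 0% of all genes in each of the 4 interactions. DESeq2 and voom called 0 of the 20, and 1 had an unadjusted p under 0.05. That value was Flt4 in EC, where 12.6% of all genes were below that p, at -1.68 ± 0.66 (adjusted p = 0.381), or -1.02 ± 0.22 without the thymus RNA library (adjusted p = 0.0425). In hearts at day 7 all 5 values lay between -0.13 and 0.17, or between -0.61 (Nrp2) and -0.11 (Nrp1) without the libraries that stand apart. At day 30 they lay between -0.24 (Nrp2) and 0.51 (Flt4), or between -0.59 (Nrp2) and 0.23 (Flt4) without them, and none was called in either fit. Relative to endothelial genes, edgeR called 0 of 15 genotype values in hearts, where 0%, 0% and 0.443% of genes were called at homeostasis, day 7 and day 30. At an unadjusted p under 0.05 there was 1, Flt4 at day 30, at 0.65 ± 0.24 (adjusted p = 0.168). Below that p were 10.4%, 2.28% and 17.9% of all genes at the 3 times. DESeq2 and voom were not run on that scale.

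Other genes of the pathway gave a mixed picture in hearts, to be read against the share of all genes called in either direction, 26.0% in Q150X and 13.7% in WT at day 7 and 29.7% in Q150X and 8.93% in WT at day 30. Of 5 VEGF ligand genes, 2 rose and 1 fell in Q150X at day 7 and 1 rose and 0 fell in WT; Pgf, which encodes the FLT1 ligand PlGF, rose by 0.75 ± 0.23 in Q150X (adjusted p = 0.021) and by 0.84 ± 0.23 in WT (adjusted p = 0.020). At day 30 Pgf was lower in Q150X than in WT, at -1.02 ± 0.22 (adjusted p = 0.047), where 0.443% of genes were called. Leaving out number 3 of the WT hearts at day 30 brought the genes called in that comparison to 0. Of 17 VEGF-responsive endothelial genes, 1 rose and 5 fell at day 7 in each genotype, with medians of -0.36 in Q150X and -0.41 in WT. Among them Apln, a peptide of growing vessel tips, fell by 3.48 ± 0.62 in Q150X (adjusted p = 0.00059) and by 3.36 ± 0.61 in WT (adjusted p = 0.0015). Unc5b, a netrin receptor of endothelium, fell by 1.01 ± 0.26 in Q150X and by 1.14 ± 0.26 in WT. At day 30, 5 rose and 2 fell in Q150X and 3 rose and 1 fell in WT. Dll4, the Notch ligand that VEGF raises in tip cells, fell by 1.08 ± 0.26 in Q150X (adjusted p = 0.004) and by 1.50 ± 0.28 in WT (adjusted p = 0.003), and Vcam1, a leukocyte adhesion gene, rose by 2.78 ± 0.52 in Q150X and by 4.11 ± 0.57 in WT.

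Read against the same shares, 25 downstream signalling genes had 1 rise and 4 falls in Q150X and 1 rise and 2 falls in WT at day 7, and 2 rises and 8 falls in Q150X and 2 rises and 2 falls in WT at day 30. Of 14 receptor partners and trafficking genes, 2 rose and 0 fell in Q150X and 0 were called in WT at day 7 by edgeR. In WT 1 of them had an unadjusted p under 0.05 there, as had 29% of all genes. At day 30, 4 of the 14 rose and 1 fell in Q150X, and 0 rose and 1 fell in WT. Cdh5, the junction cadherin that binds VEGFR2, fell by 0.68 ± 0.18 in Q150X at day 30 (adjusted p = 0.0088). Of 23 transcription factors that act on receptor genes, 1 rose and 2 fell in Q150X and 2 rose and 3 fell in WT at day 7. Mef2c fell by 0.66 ± 0.14 in Q150X and by 0.61 ± 0.14 in WT, and Sox17, an arterial endothelial factor, rose by 1.96 ± 0.41 in Q150X and by 1.24 ± 0.40 in WT. At day 30, 1 rose and 4 fell in Q150X, among them Ets2 at -0.82 ± 0.14 and Epas1, which encodes HIF2A, at -0.78 ± 0.17, and 0 rose and 2 fell in WT.

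The genes most like each member over the 21 heart libraries, by Pearson correlation of log2 CPM, differed from member to member. For Flt1 they were Tanc1 (0.916) and Cyyr1 (0.906), for Kdr Pcdh17 (0.933) and Arhgef15 (0.913), for Flt4 Arsb (0.901) and Myo1d (0.896), for Nrp1 Lama4 (0.967) and Rnf150 (0.955), and for Nrp2 Itga6 (0.965) and Rasgrp3 (0.941). Among the members themselves the values were 0.861 between Nrp1 and Nrp2, 0.704 between Flt1 and Kdr, 0.067 between Flt1 and Nrp1 and -0.605 between Flt1 and Flt4. Over the 14 group means, which are set mainly by the 3 compartments, the leading genes were Sash1 for Flt1 (0.994), Nepn for Kdr (0.990), Cd34 for Flt4 (0.994), Rasgrp3 for Nrp1 (0.972) and Podxl for Nrp2 (0.991). These are descriptions over libraries that share times, genotypes and scaling.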

How the data were processed

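Bulk RNA-seq of 43 libraries in 14 groups was analysed from the table of raw counts per gene that the authors deposited. Per the labels' protocols, RNA was taken with Trizol and 2 µg went into each library. The submitters' processing notes name the build GRCm39 and the tools HISAT2 and kallisto, with no version or role; no source used here gives the annotation or the strandedness. Symbols came from GENCODE vM21 by identifier (52029 matched; the 4981 without one held at most 0.18% of a library's counts). Exon lengths came from the same annotation. Mir1903 lies in the exons of Nrp1 on the same strand (80 shared bases), so reads there cannot be told apart even with strand known. Nrp2 overlaps 2 genes, 1 of them antisense, and shares 0 exonic bases with them.

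Each compartment was fitted alone, and the homeostasis libraries together for differences between compartments, with edgeR 4.0.16 in R 4.3.3 (TMM, robust quasi-likelihood F-test, filterByExpr at a count of 10 and a total of 15). Genes tested numbered 17845 (hearts), 18223 (EC), 15169 (CM) and 17617 (homeostasis), and all 5 members passed each time. A value was called at a Benjamini-Hochberg adjusted p under 0.05 over all genes of the fit, and an SE is the size of the log2 value divided by the square root of F. Count ratios were compared with two-sided exact permutation tests over libraries. The fits were tested on simulated counts. The members and gene lists were chosen with earlier results of these data known; named genes are the members, up to 4 called genes with the smallest p per list and comparison, of which a part is given, and the 5 genes most alike, of which the leading ones are given.

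Alternatives were DESeq2 1.42.0, DESeq2 size factors, library size alone, no filter, a replicate number block, a fit of the compared groups alone, each library left out and, added after seeing the data, voom with library weights (limma 3.58.1), a block in the compared groups alone and fits without libraries that stand apart. For values relative to endothelial genes, a median ratio of these genes was also tried as the scaling. Same-numbered libraries deviated together in some comparisons, which comes from the data and not from the labels. Between genotypes in hearts at homeostasis r was 0.69, 0.50 and 0.57. Numbers 2 and 3 of opposite genotypes there also reached 0.51 and 0.46, while number 1 against the others ran from -0.61 to -0.54. There the values set the number 1 libraries, which carried atrial RNA, apart and do not pair numbers 2 and 3. In Q150X hearts between day 7 and homeostasis r was 0.19, 0.19 and 0.11, with up to 0.15 between different numbers. In WT CM between day 3 and homeostasis it was 0.05, 0.17 and 0.24. None of the 47 replicate pairs was identical. Single-nucleus data were not analysed here. Tables, exact tests and figures were made in Python 3.11.15 with pandas 2.3.3, scipy 1.17.1 and matplotlib 3.10.9.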

Additional observations from a re-analysis of the deposited data

Results flagged for a closer look

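Kdr in number 4 of the Q150X hearts at day 30, at 147 CPM, lay far from the other 3 libraries of its group (77.5 to 86.5 CPM). The same library had the highest Flt1 (144 CPM) and endothelial sum (1547 CPM, against 1030 to 1274 CPM) and the lowest lymphatic sum (222 CPM, against 339 to 389 CPM) of its group. Kdr in number 3 of the Q150X hearts at day 7, at 116 CPM, lay below the other 3 (149 to 152 CPM). Chance flags about 1 in 20 groups, and 18 combinations of a group with a member or with the Flt1 to Kdr ratio were looked at.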

How the results depend on the processing

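Of 60 called member values, 735 of their 820 recomputed values were still called. Genotype calls, 0 in 35, became 1 with DESeq2, with library size alone, with voom and without the filter, 2 on leaving out every library that stands apart or the thymus RNA library alone, and 0 to 5 when each library was left out. Interaction calls, 0 in 20, became 1 in both fits without such libraries, and 0 to 5 on leaving out each; the 5 come from leaving out Q150X EC number 1 at day 3, so that the thymus RNA library alone stands for its group. MI calls in WT, 4, became 9 with the compared groups alone and 10 with voom (2 to 5 on leaving out each library), and in Q150X, 9, became 4 with the compared groups alone and 12 with DESeq2, with voom or without the libraries that stand apart (6 to 11). Day 30 against day 7, 5 calls, gave 8 with the compared groups alone and 9 with voom (3 to 5). Calls relative to endothelial genes, 12, became 20 without the libraries that stand apart (10 to 15), and compartment calls, 30, became 29 to 30. Relative to endothelial genes, a median ratio of these genes was tried as a second scaling, and other tools were not run. The causes were not tested. With replicate number as a block, 2 calls were lost in the comparisons named above for libraries of the same number. These were Nrp2 and the endothelial-relative Kdr value (-0.73) in Q150X hearts at day 7. By the labels, same-numbered samples share only a number. Under the block the counts were 0, 0, 5, 8, 4, 30 and 10 for genotype, interaction, MI in WT, MI in Q150X, day 30 against day 7, compartment and endothelial-relative values. Flt4 in WT hearts at day 7 turned to 0.062 without the libraries that stand apart and ran from -0.43 to 0.0043 on leaving out each library, and Flt4 relative to endothelial genes in Q150X hearts at day 7 turned to 0.037 and ran from -0.37 to 0.036; neither was called. In all 127 of 2540 values changed sign, 0 of them called. The log2 Flt1 to Kdr differences, on leaving out each library, ran from 0.62 to 0.87 (Q150X) and 0.75 to 1.21 (WT) in hearts at day 7, 0.29 to 0.51 and 0.66 to 0.99 at day 30, 0.90 to 1.15 and 0.86 to 0.91 in EC, and -0.20 to 0.05 and -0.28 to 0.08 in CM. The lowest member count in a library was 43, and the groups held 2 to 4 libraries; which of these limits the calls more was not compared.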
